A study of Mus musculus with 58 samples.

Results

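Neurons that fire switch on a set of genes within minutes to hours. Some of these genes encode transcription factors, and others act directly at the synapse or on signalling. Followed here in mouse prefrontal cortex were 9 of them, 6 effectors and the 3 Nr4a receptors, which are themselves transcription factors. They are the synaptic effectors Arc, Homer1 and Nptx2, the signalling effectors Dusp1, Sik1 and Btg2, and the orphan nuclear receptors Nr4a1, Nr4a2 and Nr4a3. They were chosen by name as activity-induced effectors together with the Nr4a family. The choice was made with earlier results of these data known, so their counts set against all genes are a description. All 9 were found among the 18088 genes of the deposited table and passed the filter on low values.

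RNA sequencing of the prefrontal cortex was done at postnatal day 25 on C57BL/6J mice that were heterozygous (HT) for a Tbl1xr1 knock-in (KI) allele or wild type (WT). The pups had been nursed for 3 weeks, between days 3 and 24, by dams given lithium, fluoxetine or vehicle, so each drug came with the milk. The HT lithium, HT fluoxetine, HT vehicle, WT fluoxetine and WT vehicle groups held 5 female and 5 male libraries each, and WT lithium held 4 of each sex, which gives 58 libraries in 12 groups. The labels give neither the KI mutation, nor doses, nor the dam or litter of a pup, and they do not say that each library is a separate animal. The p-values therefore measure the spread between libraries, and effects of a drug and of a litter cannot be told apart.

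Synaptic input reaches these genes through calcium and through kinases that phosphorylate CREB and the partners of the serum response factor, which already sit at their promoters, so that transcription starts without new protein synthesis. Arc, Homer1 and Nptx2 then act on glutamate receptors at the synapse, Dusp1 and Sik1 feed back on the kinase pathways that induced them, and the Nr4a receptors carry the response on to further genes as transcription factors. In cortex the level of such mRNAs is a common reading of recent neuronal activity, and it also moves with waking, handling and novelty in the hours before the tissue is taken.

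Per library, 22.9 to 35.01 M reads (megareads) were recovered from the table, with a median of 26.72 M. Tbl1xr1 itself had 2275.5, 2523.6 and 2746.8 normalised counts in HT libraries (lowest, median and highest) and 1817.3, 2068.0 and 2278.6 in WT libraries. It was thus higher in HT, and the ranges of the genotypes barely overlapped. The marker Slc17a7 of cortical projection neurons was high in every library, at 36361.9 to 53377.7. Markers of neighbouring tissue varied, and the sum of 7 olfactory bulb markers ran from 381.1 to 19976.3. WT vehicle female 4 and HT lithium male 1 stood apart with choroid plexus marker sums of 33282.9 and 25640.3, against 529.3 at most in the other libraries. The highest correlation between any 2 libraries was 0.9917.

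The 9 genes covered a wide range of levels. A level here is the deposited normalised read count, that is reads divided by a size factor of the library, and levels of different genes are compared per kilobase of annotated exons. On that scale Arc ranked first, with a mean of 1190.4 per kb, and Nr4a1, Homer1 and Nptx2 followed at 619.5, 605.9 and 561.7 per kb. Dusp1, Btg2, Nr4a3 and Nr4a2 lay between 160.6 and 210.4 per kb, and Sik1 was lowest at 92.3 per kb. For Homer1 the value is a gene total. It adds the long scaffold isoforms to the short Homer1a form that activity induces, so a change of the short form is diluted in it.

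On build GRCm38, Arc (ENSMUSG00000022602) lies on chr15:74669083-74672570 on the minus strand and Nr4a1 (ENSMUSG00000023034) on chr15:101254269-101274795 on the plus strand. Homer1 (ENSMUSG00000007617) spans chr13:93299635-93405129 on the plus strand and Nptx2 (ENSMUSG00000059991) spans chr5:144545902-144557478 on the plus strand. Dusp1 (ENSMUSG00000024190) is at chr17:26505590-26562128 and Sik1 (ENSMUSG00000024042) at chr17:31844250-31855804, both on the minus strand. Btg2 (ENSMUSG00000020423) is at chr1:134075170-134079120 and Nr4a2 (ENSMUSG00000026826) at chr2:57106830-57124003, also on the minus strand, and Nr4a3 (ENSMUSG00000028341) is at chr4:48045153-48086447 on the plus strand. Each value counts reads over the whole gene.

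RefSeq promoter windows on GRCm38.p6 were available for 6 of the 9 members, namely Homer1 (at each of its 2 annotated starts), Dusp1, Btg2, Nr4a1, Nr4a2 and Nr4a3. The 250 bases before each start were searched on both strands for the cAMP response element TGACGTCA, the site CREB binds, and for its shorter core TGACG. The full element was found at base -143 before the start of Dusp1 and at base -166 before that of Btg2, and it occurs in 1.55% of all 32851 windows. The shorter core, which overlaps every full element on each strand, was found in a window of all 6 members and not at the downstream start of Homer1, against 17.77% of all windows. No member window held an exact CArG box, the site of the serum response factor (1.47% of all windows), read as CC and GG around 6 bases of A or T. None held AAAGGTCA, the site the Nr4a receptors bind as monomers (1.34%). Near matches to these sites were not searched for. TATAAA was found for Nr4a2 alone, against 12.37% of all windows. The core holds a CpG, and the windows with it were rich in G and C, at 62.4% to 80.0%, against 46.8% at the downstream start of Homer1 and a median of 52.4% over all windows. The part of base composition in these shares was not tested. A match is a run of letters and was not tested for binding. The 5 windows below are shown because these genes differed between treatments or followed each other across libraries. Each is on the strand of its gene, any annotated exon is left out, and capitals mark TGACG or its reverse complement CGTCA, and the full element. They lie at chr17:26508520-26508722 (Dusp1, minus), chr1:134079156-134079405 (Btg2, minus), chr15:101266596-101266845 (Nr4a1, plus), chr13:93303507-93303756 (Homer1, upstream start, plus) and chr4:48045055-48045152 (Nr4a3, plus).
Dusp1: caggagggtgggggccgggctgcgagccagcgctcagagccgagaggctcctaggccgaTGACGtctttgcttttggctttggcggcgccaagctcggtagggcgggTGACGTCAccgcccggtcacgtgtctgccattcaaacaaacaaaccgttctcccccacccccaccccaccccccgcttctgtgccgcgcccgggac
Btg2: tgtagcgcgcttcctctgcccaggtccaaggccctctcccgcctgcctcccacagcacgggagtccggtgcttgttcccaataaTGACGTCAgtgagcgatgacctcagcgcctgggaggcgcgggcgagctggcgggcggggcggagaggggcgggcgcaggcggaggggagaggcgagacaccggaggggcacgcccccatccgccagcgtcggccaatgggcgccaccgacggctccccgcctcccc
Nr4a1: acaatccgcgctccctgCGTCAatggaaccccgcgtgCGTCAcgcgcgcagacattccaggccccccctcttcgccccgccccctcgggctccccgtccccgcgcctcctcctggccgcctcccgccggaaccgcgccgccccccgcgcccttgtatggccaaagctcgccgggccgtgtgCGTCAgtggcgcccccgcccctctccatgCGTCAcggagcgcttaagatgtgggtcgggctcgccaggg
Homer1: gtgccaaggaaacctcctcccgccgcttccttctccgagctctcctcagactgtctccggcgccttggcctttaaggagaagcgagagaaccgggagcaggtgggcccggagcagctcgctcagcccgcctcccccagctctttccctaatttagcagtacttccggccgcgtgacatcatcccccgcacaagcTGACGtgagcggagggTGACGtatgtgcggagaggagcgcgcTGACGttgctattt
Nr4a3: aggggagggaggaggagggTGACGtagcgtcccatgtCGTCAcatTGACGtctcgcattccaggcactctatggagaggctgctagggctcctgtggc

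The level of each member was first set out by genotype and treatment over both sexes. The lowest group mean was HT fluoxetine for Arc, Dusp1, Btg2, Sik1, Nr4a1 and Nr4a2, and WT fluoxetine for Homer1, Nptx2 and Nr4a3. The highest was WT lithium for 7 members, HT lithium for Nptx2 and WT vehicle for Btg2. In no member were the libraries of any 2 compared groups fully apart.

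**Figure D1:**
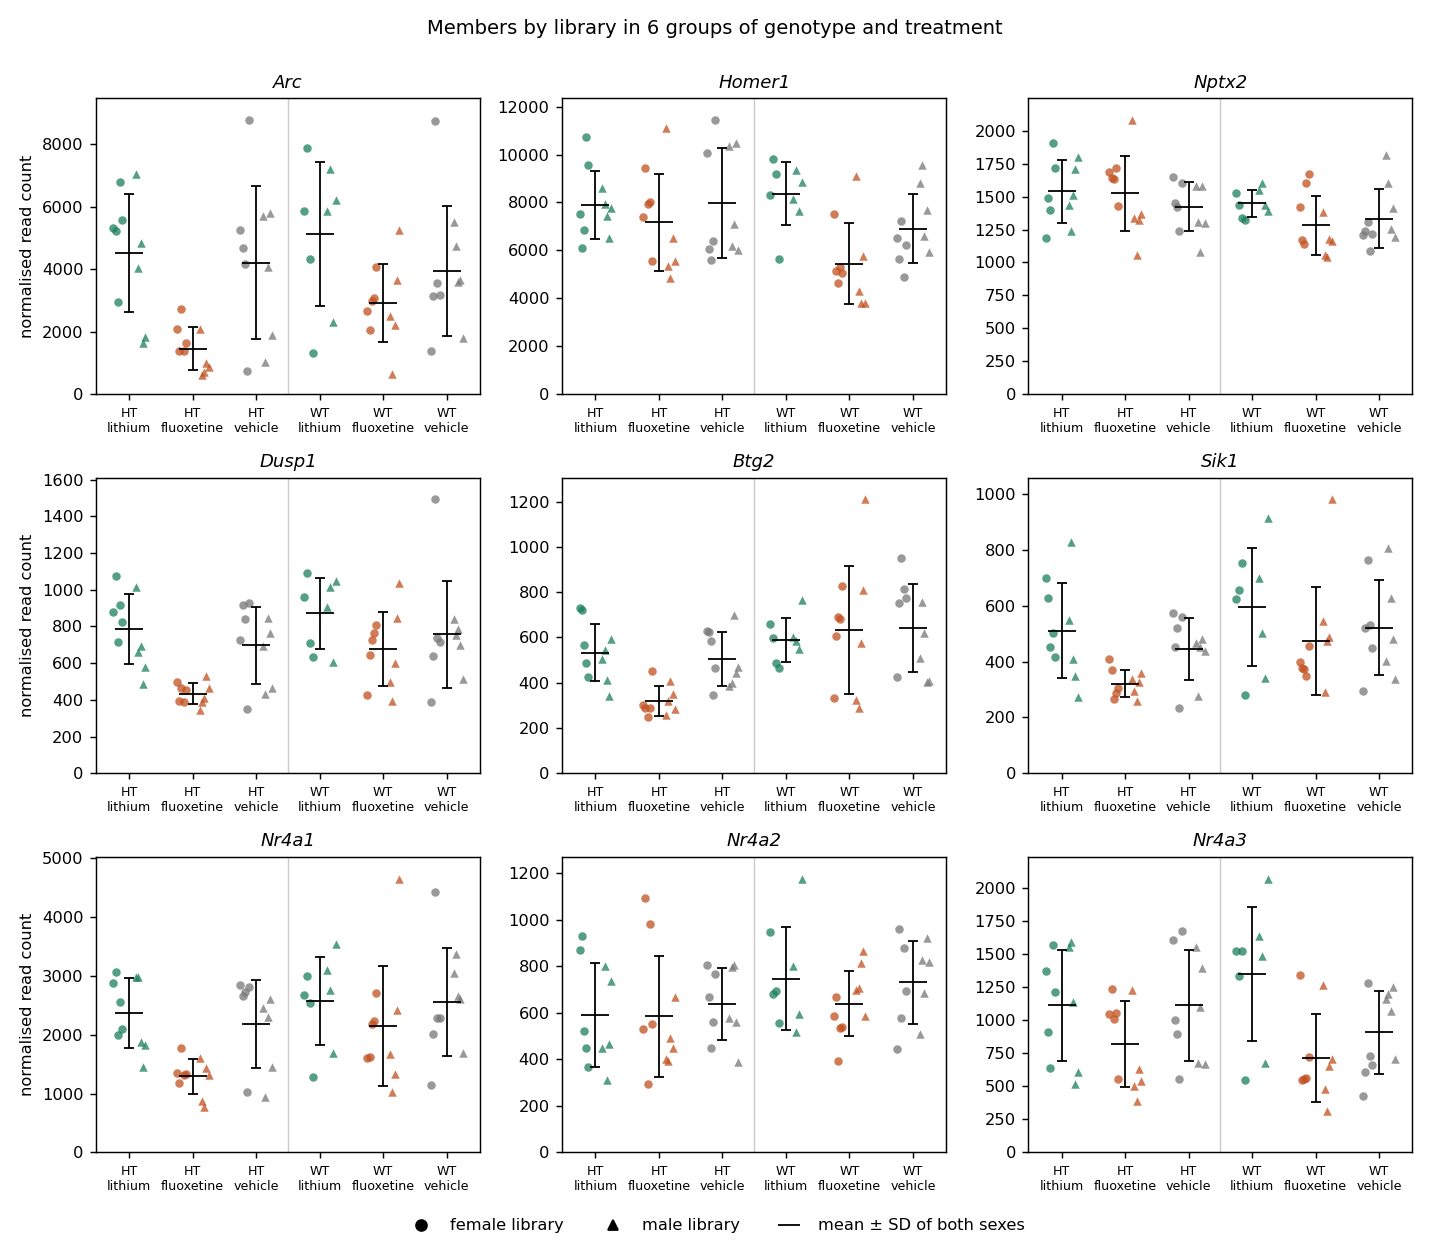
Normalised read counts (vertical axis, from 0) of the 9 members in the 58 libraries, by genotype and treatment, with circles for females, triangles for males and bars for the mean ± SD of both sexes. For Arc, Dusp1, Btg2, Sik1 and Nr4a1 the HT fluoxetine libraries form a low and narrow group, while single libraries of the other groups reach down to the same levels.

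The design allows the 2 drugs to be set against each other within a genotype, and in HT mice this contrast held the most calls. Lithium libraries had more Arc, Dusp1, Btg2 and Nr4a1 mRNA than fluoxetine libraries. These 4 of 9 members rose by limma at an adjusted p of 0.05, against 1.95% of all 16606 genes tested in either direction and 0.927% that were higher. All 9 members had a log2 change above 0, with a median of 0.61, while the median of all genes was 0. After group means were removed, the 4 called members followed each other across libraries. Pearson's r between them ran from 0.45 (Arc and Btg2) to 0.90 (Arc and Nr4a1), so these counts are not of independent genes. In bulk tissue a lower level can come from fewer cells with the mRNA or from less mRNA per cell, and these cannot be told apart.

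Arc, which binds the endocytic machinery and removes AMPA receptors from the synapse, differed most. It had 5325.0, 5223.6, 2946.9, 6778.9 and 5554.6 normalised counts in HT lithium females, against 2093.9, 1394.9, 2717.8, 1385.2 and 1621.3 in HT fluoxetine females. In males it had 7038.5, 4035.0, 4849.4, 1646.5 and 1824.3 in HT lithium, against 2076.5, 615.6, 718.6, 1010.6 and 870.9 in HT fluoxetine. Every female lithium library was above every female fluoxetine library, while among males 2 lithium libraries lay below the highest fluoxetine library. The log2 change was 1.64 ± 0.375 (SE), a 3.12-fold difference, with an adjusted p of 0.0127 by limma, and 10 of 10 lithium libraries lay above the mean of the fluoxetine libraries of their sex.

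Dusp1 encodes a nuclear phosphatase that switches off MAP kinases. It ranged from 484.6 through a median of 770.7 to 1077.0 in HT lithium, against 342.5, 431.8 and 531.9 in HT fluoxetine. Only HT lithium male 4 fell inside the fluoxetine range, so 9 of 10 lithium libraries exceeded all fluoxetine libraries. The log2 change was 0.83 ± 0.181, with an adjusted p of 0.00955 by limma.

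Nr4a1, a nuclear receptor that acts without a known natural ligand, had 1444.3, 2323.3 and 3068.5 in HT lithium, against 776.4, 1318.2 and 1772.5 in HT fluoxetine, and again 9 of 10 lithium libraries were above all fluoxetine libraries. Its log2 change was 0.87 ± 0.226 with an adjusted p of 0.028 by limma. Of the 4 calls it was lost most often: without any 1 of 6 libraries the adjusted p rose above the threshold, up to 0.0665. Those libraries were HT lithium female 2, male 1 and male 2 and HT fluoxetine female 2, male 2 and male 3.

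Btg2, a cofactor of mRNA deadenylation that restrains proliferation, had 339.1, 525.7 and 728.1 in HT lithium, against 247.2, 295.5 and 453.7 in HT fluoxetine, with 7 of 10 lithium libraries above all fluoxetine libraries. The log2 change was 0.72 ± 0.183 with an adjusted p of 0.0243 by limma. Sik1, a kinase that holds CRTC coactivators of CREB in the cytoplasm, had 271.6, 476.6 and 828.7 in HT lithium, against 259.9, 314.9 and 407.5 in HT fluoxetine. Its log2 change of 0.61 ± 0.199 did not pass (adjusted p = 0.101 by limma). Sik1 did pass with DESeq2 (0.67, adjusted p = 0.0354), and by limma with olfactory bulb markers as a covariate (0.62, adjusted p = 0.0434). The log2 changes of Nr4a3, Homer1, Nr4a2 and Nptx2 were 0.45, 0.17, 0.03 and 0.02, with adjusted p of 0.422 to 0.969 by limma.

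Levels of markers of other tissue in the same contrast were as follows. All 8 choroid plexus markers were above 0 in HT lithium against HT fluoxetine, with a median log2 change of 0.56. By limma 0 of 8 were called, against 1.95% of all genes, and 3 had an unadjusted p under 0.05, against 15.3%. Their summed level ran from 221.1 to 25640.3 in HT lithium, against 172.0 to 397.4 in HT fluoxetine. Of the 8 striatum markers 7 were above 0, with a median of 0.23. With the choroid plexus level as a covariate, Arc and Dusp1 passed and 2 members did not, Btg2 at an adjusted p of 0.0632 and Nr4a1 at 0.0747. Without the 2 libraries rich in choroid plexus, 3 members passed and Nr4a1 did not, at 0.065, a setting chosen after seeing the data. With females alone or males alone, no member passed: Arc had log2 changes of 1.49 in females and 1.80 in males, with adjusted p of 0.335 and 0.223 by limma.

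The same contrast was made in WT mice. Lithium libraries had more Homer1 and Nr4a3 mRNA than fluoxetine libraries, 2 of 9 members, against 4.83% of all genes in either direction and 2.62% that were higher. All 9 members were above 0 here too, with a median log2 change of 0.32 and a median over all genes of -0.001. Homer1 and Nr4a3 also followed each other across libraries (r = 0.77), so these 2 calls are not independent.

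Homer1, which links metabotropic glutamate receptors to the postsynaptic scaffold, had 8295.5, 9833.0, 9184.7 and 5656.9 in WT lithium females, against 7501.4, 5138.0, 4638.0, 5304.6 and 5067.2 in WT fluoxetine females. In males it had 8144.3, 9370.8, 7637.2 and 8845.7 in WT lithium, against 9121.1, 4315.7, 3789.8, 5759.0 and 3792.3 in WT fluoxetine. Replicate 1 of each sex was the highest fluoxetine library, and apart from these and WT lithium female 4 the treatments did not overlap. The log2 change was 0.66 ± 0.16 with an adjusted p of 0.0142 by limma, and 8 of 8 lithium libraries lay above the fluoxetine mean of their sex.

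Nr4a3, a nuclear receptor of the same family, had 549.3, 1501.3 and 2071.7 in WT lithium, against 311.1, 606.6 and 1338.8 in WT fluoxetine. WT fluoxetine female 1 and male 1 were again the highest fluoxetine libraries, and 5 of 8 lithium libraries exceeded them. Its log2 change was 0.93 ± 0.276 with an adjusted p of 0.0396 by limma. On the log2 scale, 7 of 8 lithium libraries lay above the fluoxetine mean of their sex. In counts, the lowest WT lithium male, at 674.5, was just below the WT fluoxetine male mean of 682.4. It passed without 5 of the 18 libraries left out in turn and did not pass without any 1 of the other 13, with an adjusted p of up to 0.0978. The 13 were WT lithium females 1 to 3 and males 1, 2 and 4, and WT fluoxetine females 2 to 5 and males 2, 3 and 5.

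The remaining members did not pass in WT. Arc had 1307.6, 5855.8 and 7879.5 in WT lithium, against 629.2, 2817.4 and 5246.1 in WT fluoxetine, a log2 change of 0.79 ± 0.398 with an adjusted p of 0.254 by limma. Dusp1, Sik1, Nr4a1, Nr4a2, Nptx2 and Btg2 had log2 changes of 0.40, 0.32, 0.32, 0.21, 0.19 and 0.01. Their adjusted p by limma ran from 0.23 for Dusp1 to 0.987 for Btg2. Of the 6 leptomeningeal markers, 5 were below 0 in WT lithium against WT fluoxetine, with a median log2 change of -0.13, and with their level as a covariate Homer1 passed and Nr4a3 did not, at an adjusted p of 0.0544.

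**Figure D2:**
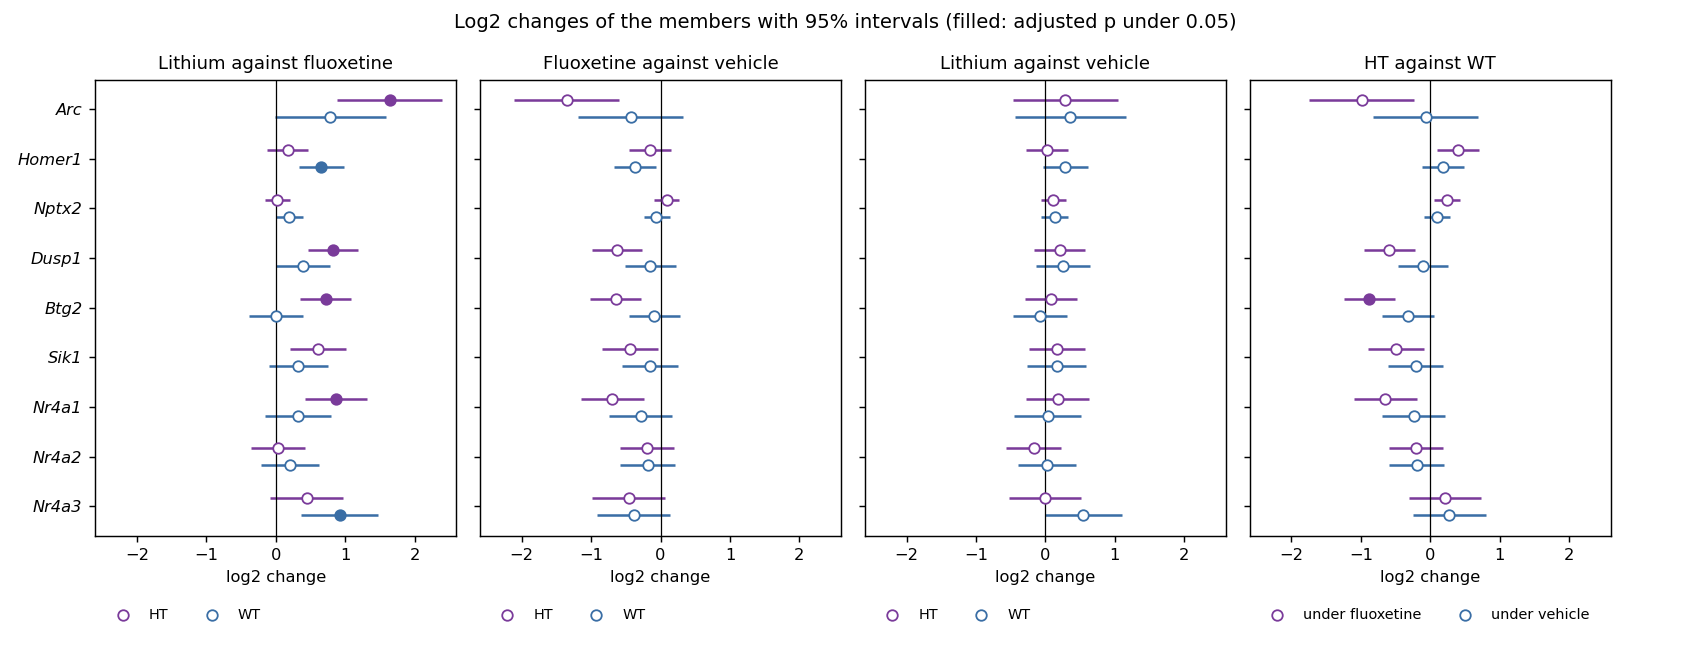
Log2 changes of the 9 members (horizontal axis) with 95% intervals of the fit, for lithium against fluoxetine, fluoxetine against vehicle, lithium against vehicle and HT against WT. Filled points passed an adjusted p of 0.05: Arc, Dusp1, Btg2 and Nr4a1 in HT and Homer1 and Nr4a3 in WT for lithium against fluoxetine, and Btg2 for HT against WT under fluoxetine.

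Whether the 2 genotypes differed in this contrast was tested directly, with an interaction added after the values were seen. No member passed, and 0.00602% of all genes did. At an unadjusted p under 0.05 Btg2 and Homer1 passed, against 13% of all genes. Btg2 was larger in HT, with an HT minus WT difference of 0.71 ± 0.267 on the log2 scale (adjusted p = 0.258 by limma). Homer1 was smaller in HT, with -0.49 ± 0.219 (adjusted p = 0.335 by limma). The differences of Arc, Nr4a1, Dusp1 and Nr4a3 were 0.86, 0.55, 0.43 and -0.48. The intervals were wide, from -0.24 to 1.95 for Arc, so the 2 lists of called members are not shown to differ between the genotypes.

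Genotype was compared within each treatment. Under fluoxetine Btg2 fell in HT mice, the 1 member of 9 called, against 0.994% of all genes in either direction and 0.373% that were lower. It had 300.5, 290.4, 247.2, 289.7 and 453.7 in HT fluoxetine females, against 332.3, 604.7, 688.6, 681.0 and 828.9 in WT fluoxetine females. In males it had 257.5, 318.6, 407.6, 349.2 and 285.3 in HT fluoxetine, against 325.3, 288.3, 574.1, 811.5 and 1210.1 in WT fluoxetine. The HT libraries were tight, and 3 WT libraries, female 1, male 1 and male 2, lay within their range while 7 lay above it. The log2 change was -0.88 ± 0.183 with an adjusted p of 0.0119 by limma, and 10 of 10 HT libraries lay below the WT mean of their sex. Without WT fluoxetine male 5 the adjusted p was 0.0516.

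The other members did not pass under fluoxetine. Dusp1, Nr4a1, Arc and Sik1 were also below 0, at -0.59, -0.65, -0.99 and -0.49, with adjusted p of 0.075, 0.11, 0.141 and 0.169 by limma. Homer1 and Nptx2 were above 0, at 0.40 and 0.25, with adjusted p of 0.134 and 0.131. Without WT fluoxetine male 1, in which Homer1 was high, Homer1 and Dusp1 passed beside Btg2. The HT fluoxetine libraries enter both this contrast and the one with lithium, so the 2 results on Btg2 are not independent.

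Over all treatments Btg2 also fell in HT, with a median of 432.6 and a range of 247.2 to 728.1 in HT libraries, against 604.3 and 288.3 to 1210.1 in WT libraries. Its log2 change was -0.45 ± 0.108 with an adjusted p of 0.0213 by limma, and 26 of 30 HT libraries lay below the WT mean of their treatment and sex. It was the 1 member of 9 called, against 1.07% of all genes and 0.5% that were lower. Under vehicle and under lithium, 0 members were called, against 0.0181% and 0.012% of all genes. At an unadjusted p under 0.05 there were also 0, against 5.76% and 5.34% of all genes, and edgeR and DESeq2 also called 0. Btg2 was at -0.32 under vehicle and -0.17 under lithium. Of the olfactory bulb markers, all 7 were below 0 in HT against WT, with a median log2 change of -1.02 over all treatments and -1.17 under fluoxetine. By limma 0 were called over all treatments, against 1.07% of all genes, with 6 at an unadjusted p under 0.05, against 15.2%. Their sums under fluoxetine were 381.1 to 11693.5 in HT and 1017.0 to 19250.5 in WT. With this level as a covariate, the adjusted p of Btg2 over all treatments was 0.0946 and its log2 change -0.39. Under fluoxetine, the 7 markers of cortical projection neurons had a median log2 change of 0.24 in HT against WT. Slc17a7 and Cux2 were at 0, and the lowest adjusted p of the 7 was 0.159 by limma, for Rorb. All 6 markers of claustrum and subplate, Nr4a2 among them, were below 0, with a median of -0.22. The part of either list in the result on Btg2 was not tested.

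Each drug was then set against vehicle, with vehicle libraries shared by both drugs. Fluoxetine called 0 of 9 members in HT and 0 in WT by limma, against 0% and 0.367% of all genes, and edgeR called 0 in each. In HT, 5 members had an unadjusted p under 0.05 and all 5 were lower, against 4.81% of all genes that were lower at that threshold, and DESeq2 called Arc. Arc was at -1.35 ± 0.375 and Btg2 at -0.64 ± 0.183, each with an adjusted p of 0.213 by limma and 10 of 10 fluoxetine libraries below the vehicle mean of their sex. Nr4a1 was at -0.69, Dusp1 at -0.62 and Sik1 at -0.44, with adjusted p of 0.295, 0.22 and 0.491 by limma. In HT vehicle the libraries of Nr4a1 were spread from 939.6 to 2851.7 around a median of 2538.7, and HT fluoxetine (776.4 to 1772.5) overlapped them. In WT, all 9 members were below 0 with a median log2 change of -0.19, and 1 member, Homer1, was lower at an unadjusted p under 0.05, against 6.91% of all genes. The difference of the fluoxetine effect between genotypes called 0 members by limma, edgeR and DESeq2, against 0% of all genes by limma. Btg2 was the 1 member lower at an unadjusted p under 0.05, against 2.48% of all genes, with an HT minus WT difference of -0.56 ± 0.259 on the log2 scale and an adjusted p of 0.964 by limma.

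Over both genotypes 8 of 9 members were below 0 under fluoxetine and 0 were called by limma, against 2.55% of all genes. Arc came closest, at a log2 change of -0.89 ± 0.265 with an adjusted p of 0.0541. It had 615.6, 2085.2 and 5246.1 in fluoxetine libraries and 737.8, 3864.6 and 8755.9 in vehicle libraries. At an unadjusted p under 0.05, 7 members were lower, against 8.85% of all genes. Here the count depended on the tool and on single libraries: edgeR called Arc, DESeq2 called Arc, Dusp1 and Nr4a1, and leaving out 1 of 40 libraries gave 0 to 3 members. Without HT vehicle female 4 or WT vehicle female 1, the lowest vehicle females in Arc, the 3 were Arc, Dusp1 and Nr4a1. Without WT fluoxetine male 5, the highest fluoxetine library in Arc, they were Arc, Btg2 and Nr4a1.

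Lithium against vehicle called 0 members in HT, 0 in WT and 0 over both genotypes, against 0.385%, 0.0301% and 2.67% of all genes, and edgeR and DESeq2 also called 0. At an unadjusted p under 0.05 there were 0 members in any of the 3, against 12.2%, 9.38% and 16.9% of all genes. The members' median log2 change was 0.11 in HT and 0.17 in WT. The 95% intervals still held sizeable differences, from -0.46 to 1.04 for Arc in HT and from -0.01 to 1.10 for Nr4a3 in WT. The lithium effect did not differ between genotypes past the threshold for any member, with 0% of all genes called by limma and 0 members by edgeR and DESeq2. At an unadjusted p under 0.05 there were 0 members, against 3.67% of all genes.

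Sex made no difference that passed. Females against males called 0 of 9 members, against 0.114% of all genes, with log2 changes from -0.02 for Sik1 to 0.28 for Arc and 0 members at an unadjusted p under 0.05, against 7.56% of all genes. The effects of fluoxetine and of lithium did not differ between the sexes past the threshold for any member, with 0% of all genes called in both tests, and edgeR and DESeq2 called 0 in these comparisons. Nptx2, a secreted pentraxin that gathers AMPA receptors on interneurons, had an unadjusted p of 0.0217 for the difference of the fluoxetine effect between females and males, 0.31 ± 0.129 on the log2 scale, with an adjusted p of 0.758 by limma. It was the 1 member higher at that threshold for fluoxetine, against 3.83% of all genes, and for lithium there were 0 members, against 1.58%.

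The members varied much more between libraries of a group than most genes. Spread was taken as the SD of log2 values after the 12 group means were removed. Arc had an SD of 0.876, rank 302 of 16606 genes, and of the 1702 genes within 1.5-fold of its mean level 0 were more variable. The median SD of those genes was 0.096. Nr4a3 and Nr4a1 had SDs of 0.607 and 0.527, and these 3 members stood above the 90th percentile of all genes. Sik1, Nr4a2, Btg2 and Dusp1 lay between 0.421 and 0.464. Homer1 and Nptx2 were steadier than the other members, at 0.35 and 0.211, the 80.4th and 62.7th percentile of all genes. Among genes within 1.5-fold of their own mean level, 8 of 816 were more variable than Homer1 and 227 of 2947 more than Nptx2. The median SDs of those genes were 0.099 and 0.1. Within HT vehicle females Arc ran from 737.8 to 8755.9, an 11.87-fold range among 5 libraries.

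The low values came together in the same libraries. WT lithium female 4 was the lowest of its group in 9 of 9 members. HT vehicle female 4, WT lithium male 3, WT vehicle female 1 and WT vehicle male 5 were each the lowest of their group in 7 members, and WT vehicle female 3 was the highest of its group in 8. Total reads did not follow the members, with correlations of 0.00 to 0.12 over the 58 libraries. The mean log2 level of 5 microglia markers ran against Sik1, Btg2 and Nr4a1, with r of -0.56, -0.50 and -0.43 as a description. Nptx2 went with interneuron markers at r = 0.59 and with those of cortical projection neurons at 0.43, and Homer1 with the same lists at 0.41 and 0.47. Btg2 and Sik1 instead ran against the markers of cortical projection neurons, at -0.30 and -0.33. They went with olfactory bulb markers at 0.24 and 0.38, while Homer1 and Nptx2 ran against these at -0.26 and -0.33. Arc, Dusp1, Homer1 and Nptx2 ran against astrocyte markers, at -0.32, -0.35, -0.36 and -0.37. The part of these cell types and tissues in the spread of the members was not tested.

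After group means were removed, 22 of the 36 pairs of members were positively correlated over the 58 libraries, by a permutation test with 100000 shuffles of Pearson's r and Benjamini-Hochberg adjustment over the 36 pairs. Arc and Nr4a1 were closest, with r = 0.90 and rho = 0.87 (adjusted p = 3e-05 for each, from the smallest p the shuffles can give). Without the 2 libraries farthest from the median of Arc, r was 0.88. Arc and Dusp1 had r = 0.83 and rho = 0.78, Dusp1 and Nr4a1 r = 0.86 and rho = 0.81, and Sik1 and Nr4a1 r = 0.82 and rho = 0.74, each with adjusted p = 3e-05 and with r of 0.79, 0.83 and 0.79 without the 2 farthest libraries.

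**Figure D3:**
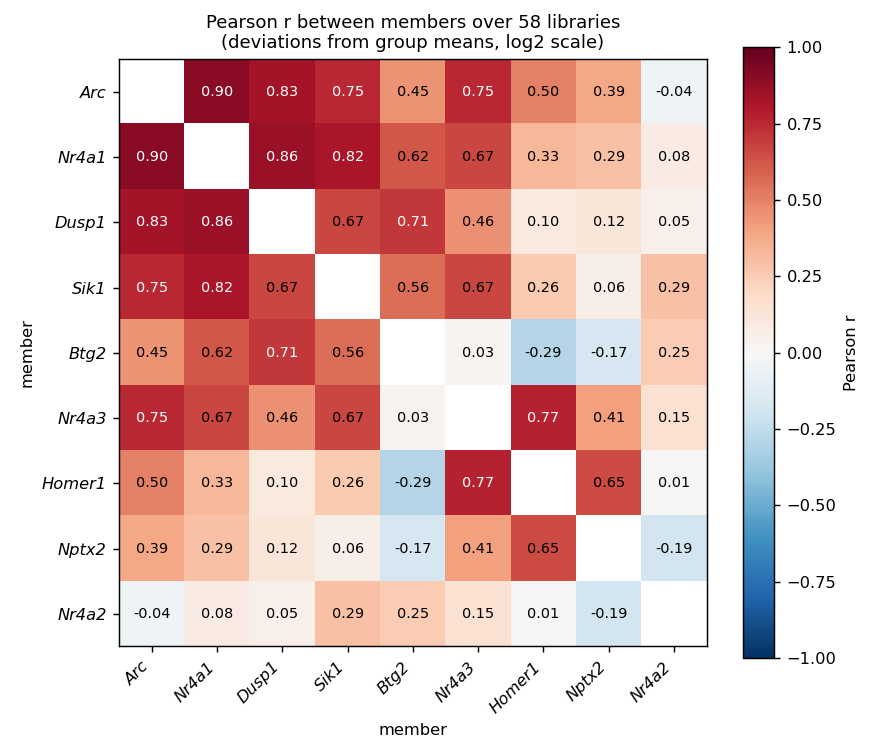
Pearson r between the 9 members over 58 libraries, from deviations from the group means on the log2 scale, with red for positive and blue for negative values. Arc, Nr4a1, Dusp1 and Sik1 form 1 block with r of 0.67 to 0.90, Homer1 goes with Nr4a3 and Nptx2 at 0.77 and 0.65, and the row of Nr4a2 lies between -0.19 and 0.29.

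Homer1 was closest to Nr4a3 (r = 0.77, rho = 0.77) and Nptx2 (r = 0.65, rho = 0.64), each with adjusted p = 3e-05 by the permutation test. With Arc it had r = 0.50 (rho = 0.54, adjusted p = 0.00022 for r and 6e-05 for rho), and with Nr4a1 r = 0.33 (rho = 0.40, adjusted p = 0.0213 and 0.00368). With Dusp1 it had r = 0.10 (rho = 0.16, adjusted p = 0.53 for r and 0.311 for rho). Homer1 and Btg2 were the 1 negative pair past the threshold, with r = -0.29 and adjusted p = 0.0463 by the permutation test. This pair is uncertain, since the shuffles do not allow for the group means removed. Its rho was -0.23 with adjusted p = 0.128, and r was -0.18 without the 2 libraries farthest from the median of Homer1. Btg2 and Nr4a3 had r = 0.03. Nr4a3 and Arc had r = 0.75.

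Within treatments the relations differed in size. Dusp1 and Nr4a3 had r = 0.74 in lithium libraries, -0.25 in fluoxetine libraries and 0.85 in vehicle libraries. Homer1 and Dusp1 had 0.45, -0.41 and 0.38, and Homer1 and Btg2 had -0.04, -0.55 and 0.02 in lithium, fluoxetine and vehicle libraries. Arc and Nr4a1 had 0.85, 0.86 and 0.96 in the same order. These differences between treatments were not tested. In lithium libraries alone 14 pairs were positive past the threshold, in fluoxetine libraries alone 11 and in vehicle libraries alone 21, from 18, 20 and 20 libraries. The limit of the shuffles holds for these counts too.

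**Figure D4:**
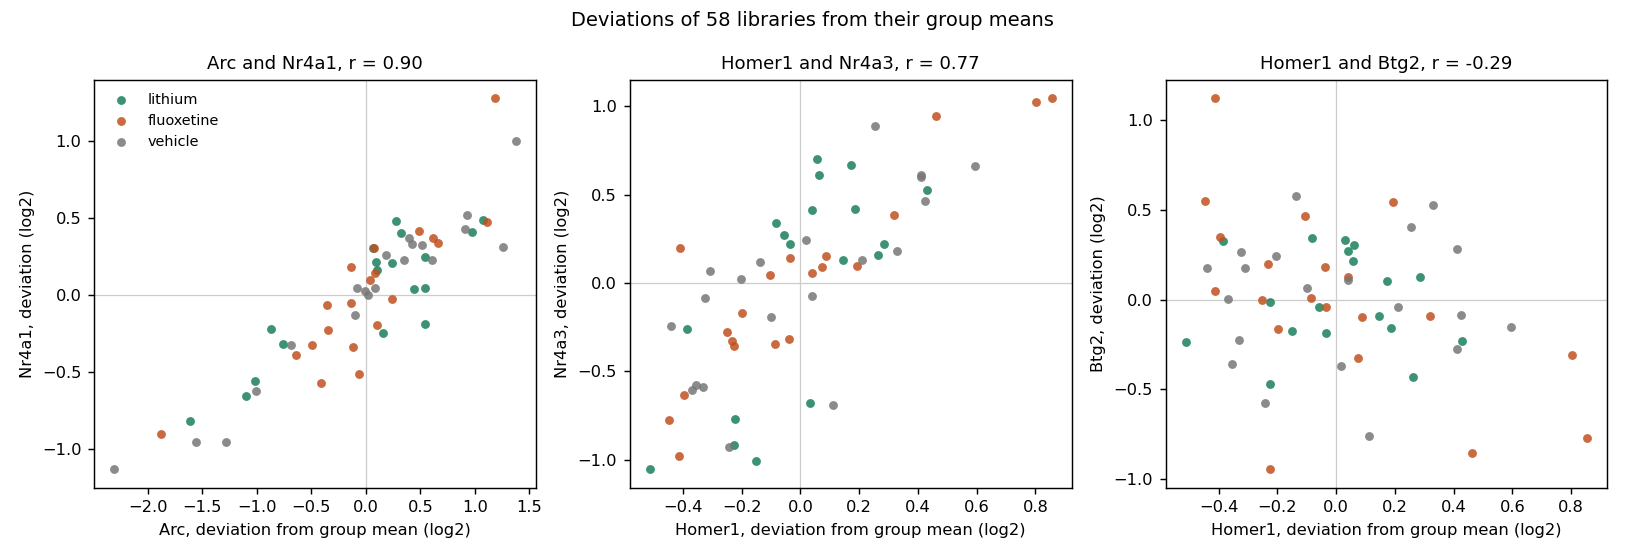
Deviations of the 58 libraries from their group means (log2) for Arc and Nr4a1, Homer1 and Nr4a3, and Homer1 and Btg2, coloured by treatment. Arc and Nr4a1 rise along 1 line over the whole range, and in the third panel the 3 fluoxetine libraries farthest right in Homer1 lie below 0 in Btg2.

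Over the 58 libraries together, Nr4a2 followed the other members least. Its r with the other 8 members ran from -0.19 with Nptx2 to 0.29 with Sik1. By r only that with Sik1 passed (adjusted p = 0.046 by the permutation test, rho = 0.31 with adjusted p = 0.0277). So close to the threshold the call by r is uncertain, given the limit of the shuffles. By rho its relation with Btg2 passed as well (0.31, adjusted p = 0.0277). In lithium libraries alone, r of Nr4a2 ran from -0.38 with Nptx2 to 0.84 with Btg2, and was 0.54 with Sik1 and 0.52 with Nr4a1. With Btg2, Sik1 and Nr4a1 it was -0.05, 0.03 and -0.30 in fluoxetine libraries and 0.27, 0.18 and 0.08 in vehicle libraries. These differences were not tested. The correlation of Nr4a2 with the mean log2 level of the other claustrum and subplate markers was 0.62 over the 58 libraries, as a description. Neurons of the claustrum and the deepest cortical layer carry Nr4a2 without stimulation. Bcl11b and Tox3 were among the 3 genes nearest to it, at r = 0.63 each.

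The genes nearest to each member were looked up among 13654 other genes, by Pearson's r of the same deviations over the 58 libraries, which share depth and dissection. For Arc they were the transcription factors Egr2 (0.93), Junb (0.91) and Fos (0.91). Junb (0.93), Fos (0.89) and Egr2 (0.88) were also nearest to Nr4a1. Dusp1 lay nearest to Junb (0.87), Ier2 (0.85) and Trib1 (0.84), and Sik1 to Dusp5 (0.88), Tiparp (0.87) and Fos (0.85). Btg2 lay nearest to Npas4 (0.81), a neuronal transcription factor that responds to calcium, then Ccn1 (0.78) and Ier2 (0.78). Homer1 lay nearest to the Ras pathway inhibitors Spred1 (0.93) and Spred2 (0.92) and to Egr3 (0.89). Nr4a3 lay nearest to Dnajb5 (0.92), Bhlhe40 (0.91) and Nab2 (0.89), and Nptx2 to Ifrd1 (0.73), Vgf (0.73) and Dusp7 (0.72).

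Other activity-induced genes were followed from fixed lists. Of 17 transcription factors, 15 were above 0 in HT lithium against HT fluoxetine and 3 rose by limma, against 0.927% of all genes. They were Junb at 0.96 ± 0.224 (adjusted p = 0.0148), Npas4 at 0.83 ± 0.199 (adjusted p = 0.0164) and Ier2 at 0.74 ± 0.202 (adjusted p = 0.0382). The median log2 change of the 17 was 0.55. Junb, Npas4 and Ier2 were each among the 3 genes nearest to a called member, so their calls are not independent of those of the members. In WT 15 were again above 0 with a median of 0.29, and Klf10 (0.77 ± 0.22, adjusted p = 0.0333) and Crem (0.25 ± 0.0753, adjusted p = 0.0423) rose by limma, against 2.62% of all genes. Under fluoxetine Npas4 and Ier2 fell in HT against WT, at -1.07 ± 0.199 and -0.78 ± 0.202 with adjusted p of 0.00562 and 0.0397 by limma. Over all treatments Npas4 fell, at -0.59 ± 0.117 with adjusted p = 0.00454. Against vehicle 0 of the 17 were called for either drug in either genotype by limma. In HT fluoxetine, 7 were lower and 1 higher at an unadjusted p under 0.05, against 4.81% and 4.38% of all genes. At that threshold there were 0 in WT fluoxetine, 2 in HT lithium and 2 in WT lithium, against 13.4%, 12.2% and 9.38% of all genes, so the lithium counts were near the background. In HT fluoxetine the log2 changes were -0.76 for Npas4, -0.77 for Junb and -0.70 for Ier2.

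Of 25 other effectors, 20 were above 0 in HT lithium against HT fluoxetine, with a median log2 change of 0.18, and 3 rose by limma, against 0.927% of all genes. These were Arl4d (0.63 ± 0.13, adjusted p = 0.00671), Gadd45b (0.65 ± 0.145, adjusted p = 0.0101) and Gadd45g (0.53 ± 0.119, adjusted p = 0.0108), and both Gadd45 proteins are stress sensors that take part in DNA demethylation. In WT 25 of 25 were above 0, with a median of 0.25, and 4 rose, against 2.62% of all genes. They were Pcsk1 (0.47 ± 0.105, adjusted p = 0.0092), a prohormone convertase, Bdnf (0.46 ± 0.116, adjusted p = 0.0163), the neurotrophin, Dusp14 (0.20 ± 0.0559, adjusted p = 0.0309) and Gadd45b (0.51 ± 0.153, adjusted p = 0.0431). Lithium against vehicle over both genotypes raised Gadd45b (0.52 ± 0.105, adjusted p = 0.00382) and Gadd45g (0.33 ± 0.0867, adjusted p = 0.0299). Within a genotype 0 of the 25 were called against vehicle for either drug by limma. In WT lithium, 10 were higher and 0 lower at an unadjusted p under 0.05, against 4.97% and 4.41% of all genes, and in HT lithium 1 was higher and 1 lower, against 5.56% and 6.67%. For fluoxetine, 1 was higher and 3 lower in HT, against 4.38% and 4.81% of all genes, and 0 were higher and 3 lower in WT, against 6.46% and 6.91%. Gadd45b was closest for lithium, at 0.49 in HT (adjusted p = 0.102) and 0.55 in WT (adjusted p = 0.162). Arl4d was closest for fluoxetine in HT, at -0.44 (adjusted p = 0.22). Nrn1, a membrane-anchored neuritin that supports synapses, rose in HT against WT under fluoxetine (0.38 ± 0.0806, adjusted p = 0.014) and over all treatments (0.24 ± 0.0475, adjusted p = 0.00518), opposite in sign to Btg2.

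Of 31 partners of the members, such as Shank scaffolds, MAP kinases, CRTC coactivators and RXR receptors, 1 was called in WT lithium against WT fluoxetine, against 4.83% of all genes. This was Rxrb, which pairs with Nr4a1 and fell (-0.13 ± 0.04, adjusted p = 0.0443 by limma). Tob1, a relative of Btg2, was the 1 called in HT against WT under fluoxetine, where 0.994% of all genes were, and fell (-0.31 ± 0.0802, adjusted p = 0.0391 by limma). In HT lithium against HT fluoxetine 0 of 31 were called, against 1.95% of all genes, with 5 at an unadjusted p under 0.05, against 15.3%, and a median log2 change of -0.02. Of 6 heat shock genes read as signs of handling, 0 were called in lithium against fluoxetine in either genotype by limma. The shares of all genes were 1.95% in HT and 4.83% in WT. Hsph1 came closest, at 0.22 in WT with an adjusted p of 0.0612 by limma. It was the 1 gene of the 6 at an unadjusted p under 0.05, against 15.3% of all genes in HT and 20.4% in WT. The part of handling was not tested.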

How the data were processed

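Stranded mRNA libraries of prefrontal cortex were sequenced, 58 in 12 groups, per the labels' protocols. The signal values deposited by the authors were made from read counts per gene, which they had scaled with a size factor for each library. The tools named in the submitters' processing notes are DESeq2 1.19.11, Salmon 0.11.2 and R 3.6.0, with genome build GRCm38; counting, strand and filter settings are not given in the sources used here. Undoing the size factors gave back whole reads for 100.0% of values, within 0.0001 of a whole number, and 22.9 to 35.01 M reads per library (megareads). This scaling assumes that most genes did not change, and gene totals add up isoforms.

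Values were tested as log2(value + 1) for the 16606 of 18088 genes with a mean of at least 10. Limma 3.58.1 in R 4.3.3 fitted the 12 group means with a mean-variance trend and 46 residual degrees of freedom. P-values were adjusted by Benjamini-Hochberg over all genes of a comparison, with a threshold of 0.05, and 17 comparisons were made. Folds, and counts of libraries above or below a group mean, are on the log2(value + 1) scale. The script was tested on simulated data. On the recovered reads, edgeR 4.0.16 called 293 genes and DESeq2 1.42.0 called 449 for lithium against fluoxetine in HT, where limma called 324. Relations between members used deviations from the group means and 100000 shuffles.

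The members and the gene lists were chosen with earlier results of these data known. Named were all 9 members, list genes that passed in a comparison or were among the 3 smallest p-values of their list against vehicle, and the 3 genes nearest to each member among those with a mean of at least 50. Alternatives were another pseudocount or minimum mean, rescaling, array weights, fewer groups, 1 sex, marker levels as covariates, count tests, a replicate block and leaving out each library. The test of lithium against fluoxetine between the genotypes and the fits without the libraries rich in choroid plexus were chosen after seeing the data. Promoters came from RefSeq (GRCm38.p6).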

Additional observations from a re-analysis of the deposited data

Results flagged for a closer look

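Within single groups of 4 or 5 libraries of 1 sex, 10 values of 108 member and group combinations stood far from the rest by Dixon's criterion. Chance alone gives about 1 in 20 such groups. Of the 10 values, 7 were in fluoxetine groups, and replicate 1 gave 5 of those. In HT fluoxetine male 1, Arc was 2076.5 with the next library at 1010.6, Homer1 was 11089.0 with the next at 6536.8, and Nr4a3 was 1227.5 with the next at 626.7. In WT fluoxetine female 1, Homer1 was 7501.4 with the next library at 5304.6 and Nr4a3 was 1338.8 with the next at 718.1. Homer1 and Nr4a3, the pair with r of 0.90 in fluoxetine libraries, stood high together in both of these libraries. WT fluoxetine male 1 was also the highest of its group in Homer1 (9121.1) and Nr4a3 (1266.2), while HT fluoxetine female 1 was not (7376.9 and 1044.3). Btg2 was lowest of the group in HT fluoxetine male 1 (257.5) and WT fluoxetine female 1 (332.3) and second lowest in WT fluoxetine male 1 (325.3). The labels do not say that the number 1 marks a shared batch or litter, and its part in these values was not tested.

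The other 2 values from fluoxetine groups were Btg2 at 453.7 in HT fluoxetine female 5, with the next library at 300.5, and Nr4a1 at 1772.5 in HT fluoxetine female 3, with the next at 1346.9. In the HT vehicle groups, Btg2 was 698.3 in male 3 with the next library at 467.6. Sik1 was lowest in HT vehicle male 2, at 276.4 with the next library at 438.4, and Nr4a1 was lowest in HT vehicle female 4, at 1034.0 with the next at 2658.7. The last of these libraries was the lowest of its group in 7 of the 9 members.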

How the results depend on the processing

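No call turned its direction under any alternative. Of the called results, the 4 members of lithium against fluoxetine in HT became 2 with choroid plexus markers as a covariate and 3 without the libraries rich in choroid plexus, and the 2 in WT became 1 with leptomeningeal markers (Homer1) and 0 with the compared groups alone. Every called contrast gave 0 in females alone and in males alone. Btg2 under fluoxetine in HT against WT was lost with the compared groups alone (0 members, adjusted p = 0.123), and array weights gave 2 members and DESeq2 3. Over all treatments it was lost with olfactory bulb markers as a covariate (0 members). Fluoxetine against vehicle over both genotypes gave 1 member with a minimum mean of 50, array weights, olfactory bulb markers or edgeR, and 3 with DESeq2. In HT DESeq2 gave 1 and in WT array weights gave 1. Leaving out single libraries gave 3 to 5 members for lithium against fluoxetine in HT, 1 to 2 in WT, 0 to 3 for genotype under fluoxetine, 1 in every case for genotype over all treatments, 0 to 3 for fluoxetine over both genotypes and 0 elsewhere. In HT the fifth member was Sik1, gained without HT lithium male 5. With a pseudocount of 5, 7 members in place of 3 were above the 90th percentile of spread. Pairs positive past the threshold were 22 over all libraries, 11 in fluoxetine libraries alone and 14 in lithium libraries alone. The cause of these changes was not tested. With a replicate block the counts were 4, 2, 1 and 1 as before and 0 elsewhere; same-numbered libraries had a median r of 0.002 over 309 pairs, from -0.488 to 0.576, so not every pair was over 0.1 and the numbers were not taken as pairs. The 1232 pairs of different number had a median r of -0.004. Of the 58 libraries, 15 correlated best with one of their own number, a count that was not tested against the share of same-numbered pairs.

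Over all genes, genotype under fluoxetine gave 165 calls as reported, 593 with array weights and 5 in males alone. The share of calls that were higher was 62.4%, and 46% with upper-quartile rescaling and 81% with median centring. For lithium against fluoxetine, median centring moved that share in HT to 29.6% (47.5% as reported) and upper-quartile rescaling in WT to 36.2% (54.2% as reported). Median centring moved it for genotype over all treatments to 64.1%, from 53.1% as reported. In HT lithium against fluoxetine the count was 112 with choroid plexus markers and 624 with olfactory bulb markers as a covariate, and 324 as reported. In WT it was 508 with a replicate block and 1925 with array weights, and 802 as reported. Leaving out 1 library moved the count for genotype under fluoxetine to between 26 (without WT fluoxetine male 5) and 1109 (without WT fluoxetine male 1). Without the same WT fluoxetine male 1, it was 1498 for lithium against fluoxetine in WT, with a lowest of 342 without WT lithium female 1. It was 347 for fluoxetine in WT (61 as reported), with a lowest of 18 without WT fluoxetine female 5. The ranges were 210 to 482 for lithium against fluoxetine in HT, 225 to 719 for fluoxetine over both genotypes (423 as reported), 115 to 299 for genotype over all treatments (177) and 256 to 574 for lithium over both genotypes (443). For lithium they were 25 to 84 in HT (64) and 0 to 44 in WT (5). The shares of all genes given beside the members move with these libraries. Each member had at least 187 reads in every library, and the part of depth in the spread between libraries was not tested.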

Other observations

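Glucocorticoid-responsive genes follow circulating corticosterone. Of 11 listed genes, 5 rose under fluoxetine against vehicle over both genotypes by limma, against 1.1% of all genes. These were Map3k6 (log2 change 0.77 ± 0.1, adjusted p = 9e-06), Fkbp5 (0.51 ± 0.0904, adjusted p = 0.00217), which holds the glucocorticoid receptor in the cytoplasm, Zbtb16 (0.27 ± 0.0635, adjusted p = 0.0161), Sult1a1 (0.49 ± 0.116, adjusted p = 0.0181) and Plin4 (0.86 ± 0.204, adjusted p = 0.0182). Not called were Cdkn1a at 0.15, Sgk1 at 0.14, Tsc22d3 at 0.12, Nfkbia at 0.06, Errfi1 at 0 and Per1 at -0.07. Their adjusted p ran from 0.123 to 0.979 by limma, and the part of corticosterone was not tested. In WT alone Map3k6 (0.91 ± 0.142, adjusted p = 0.00082) and Fkbp5 (0.60 ± 0.128, adjusted p = 0.0193) rose, against 0.157% of all genes. In HT 0 of the 11 were called, against 0% of all genes, with 6 higher at an unadjusted p under 0.05, against 4.38%, and the difference between genotypes called 0 of the 11.

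Against fluoxetine, lithium libraries had lower levels in WT of Fkbp5 (-0.55 ± 0.136, adjusted p = 0.015), Plin4 (-1.22 ± 0.306, adjusted p = 0.0165) and Map3k6 (-0.57 ± 0.15, adjusted p = 0.0221), all by limma, 3 of 11 against 2.21% of all genes. In HT 0 of 11 were called in this contrast, against 1.95% of all genes, with 3 at an unadjusted p under 0.05, against 15.3%. Of these, Fkbp5 and Map3k6 were lower in lithium libraries, at -0.33 and -0.3, and Per1 was higher, at 0.25. Under lithium against vehicle over both genotypes Nfkbia rose (0.21 ± 0.0574, adjusted p = 0.0331 by limma), 1 of 11 against 1.37% of all genes, and all 11 were above 0 with a median of 0.17.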
